A study of Mus musculus with 24 samples.

Results

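Translation initiation factors are the proteins that place a ribosome on the start codon of a messenger RNA. The group described here holds every gene whose only symbol in the array's probe table begins with Eif1 to Eif6, without the kinase genes Eif2ak1 to Eif2ak4 and the sex-linked genes Eif2s3x and Eif2s3y. This gave 41 of the 18193 genes that the table names. They were chosen by name and not by a measured value, though with earlier results of these data known. RNA came from spleen cells of C57BL/6 mice 6 to 8 weeks old, kept with anti-IgM, an antibody against surface IgM that stimulates B cells through their receptor, for 0, 3, 8 or 16 h and enriched for B cells with magnetic beads. KO cells came from mice with loxP sites around exon 3 of Nfatc1, the exon for the part of this transcription factor that binds calcineurin, and with mb1-cre, a Cre recombinase driven from Cd79a in the B lineage. WT cells came from control mice, and whether these carried the floxed allele or the Cre is not given in the sources used here. Each of the 8 combinations of genotype and time had 3 biological replicates, 1 Affymetrix array each, 24 in all.

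In the cap-dependent route, eIF4E binds the cap of the mRNA, the scaffold eIF4G joins it to the helicase eIF4A, and the large complex eIF3 links these to the small ribosomal subunit. That subunit carries eIF1, eIF1A and a complex of eIF2, GTP and the initiator tRNA, and scans to the start codon. There eIF5 triggers hydrolysis of the GTP, eIF5B joins the large subunit, and eIF2B reloads eIF2 with GTP for the next round. Cells control the pathway through phosphorylation of eIF2, which blocks eIF2B, and through the eIF4E-binding proteins, which hold eIF4E until mTOR phosphorylates them. Resting B cells are small and make little protein, and stimulation through the receptor makes them grow.

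Values are log2 of MAS5 signals, so a difference of 1 is a 2-fold rise, and a level is compared only with the same probe set on other arrays. All 7 measured B cell markers were above the 40th percentile of their array on every array. The mean of these 7 was 13.2 in both genotypes at 0 h and 11.5 to 11.9 in the stimulated groups. Markers of other cells moved with stimulation too: the mean of 7 neutrophil markers went from 8.43 to 6.64 between 0 and 16 h in WT cells, and KO cells had means of 7.39 and 7.26. The corresponding means of 4 NK cell markers were 6.98 and 5.24 in WT cells, and 7.23 and 4.41 in KO cells. Of 9 T cell markers 2 or 3 were above the level on every array of a group, with group means of 4.93 to 5.71. Of 8 macrophage and monocyte markers 4 to 7 were, with group means of 6.99 to 7.85. These did not move together: between 0 and 16 h in KO cells Lyz2 went from 12 to 11.2 and Adgre1 from 8.1 to 10.2. The part of these cells in the changes below was not tested, and in RNA of mixed cells fewer cells of a type and less RNA per cell cannot be told apart. WT replicate 2 at all 4 times was male by expression and the other arrays were not. KO replicate 2 at 8 and 16 h had the highest 40th percentiles of signal, 6.23 and 6.42. The brightest of 5 Nfatc1 probe sets was higher in KO than in WT cells averaged over the 4 times (0.56, SE 0.0628, limma adjusted p = 1.12e-05). The sources used here do not place them inside or outside the deleted exon, and they therefore do not check the labels. Expression of Rcan1, an NFAT target, was lower in KO cells (-0.61, SE 0.0916, adjusted p = 0.000519).

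Most initiation factors rose after anti-IgM, in both genotypes and by 3 h. Of the 41 members, 40 were tested, and these 40 were above the filter level on all 24 arrays, so the filter on low values removed none for its response. Eif4a3, whose protein belongs to the exon junction complex, was above that level on 0 arrays and was not tested. In WT cells 26 members were higher and 4 lower at 3 h than at 0 h (limma, Benjamini-Hochberg adjusted p under 0.05), where 17% of the 14318 genes tested were higher and 21.3% lower. At 8 h 27 were higher and 1 lower, beside 17.7% and 15.7% of all genes. At 16 h 32 were higher and 1 lower, beside 20.9% and 18.5%. In KO cells 26 were higher and 3 lower at 3 h, beside 16.6% and 21.7% of all genes. The counts in KO cells were 27 and 1 at 8 h, beside 17.3% and 14.4%, and 30 and 1 at 16 h, beside 19.4% and 16.4%.

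The median member changed by 0.57, 0.63 and 0.89 at 3, 8 and 16 h in WT cells, where the median of all genes was -0.14, -0.04 and 0.05. In KO cells the median member changed by 0.53, 0.66 and 0.83, and the median gene by -0.11, 0.02 and 0.08. Scaling each array to its median raised the median gene at 3 h in WT cells to 0.10 and the median member to 0.80. Under that scaling 26 members were higher and 1 lower at 3 h in WT cells, and higher genes made up 60.3% of all genes called, against 44.5% as deposited. At 8 h in WT cells that share rose from 53.1% to 64%, with 27 members higher and 1 lower either way. Taken over the 6 comparisons with 0 h, 24 members were higher in all 6, 7 were higher in some and lower in none, 5 passed in none and 4 were lower in at least 1. The 3 comparisons of a genotype share its 3 arrays at 0 h and are not independent. A minimum change of 1.5-fold, tested in place of any change, left 13 to 20 called members per comparison. The maps of changes by member and the distributions against all genes show these patterns.

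**Figure D1:**
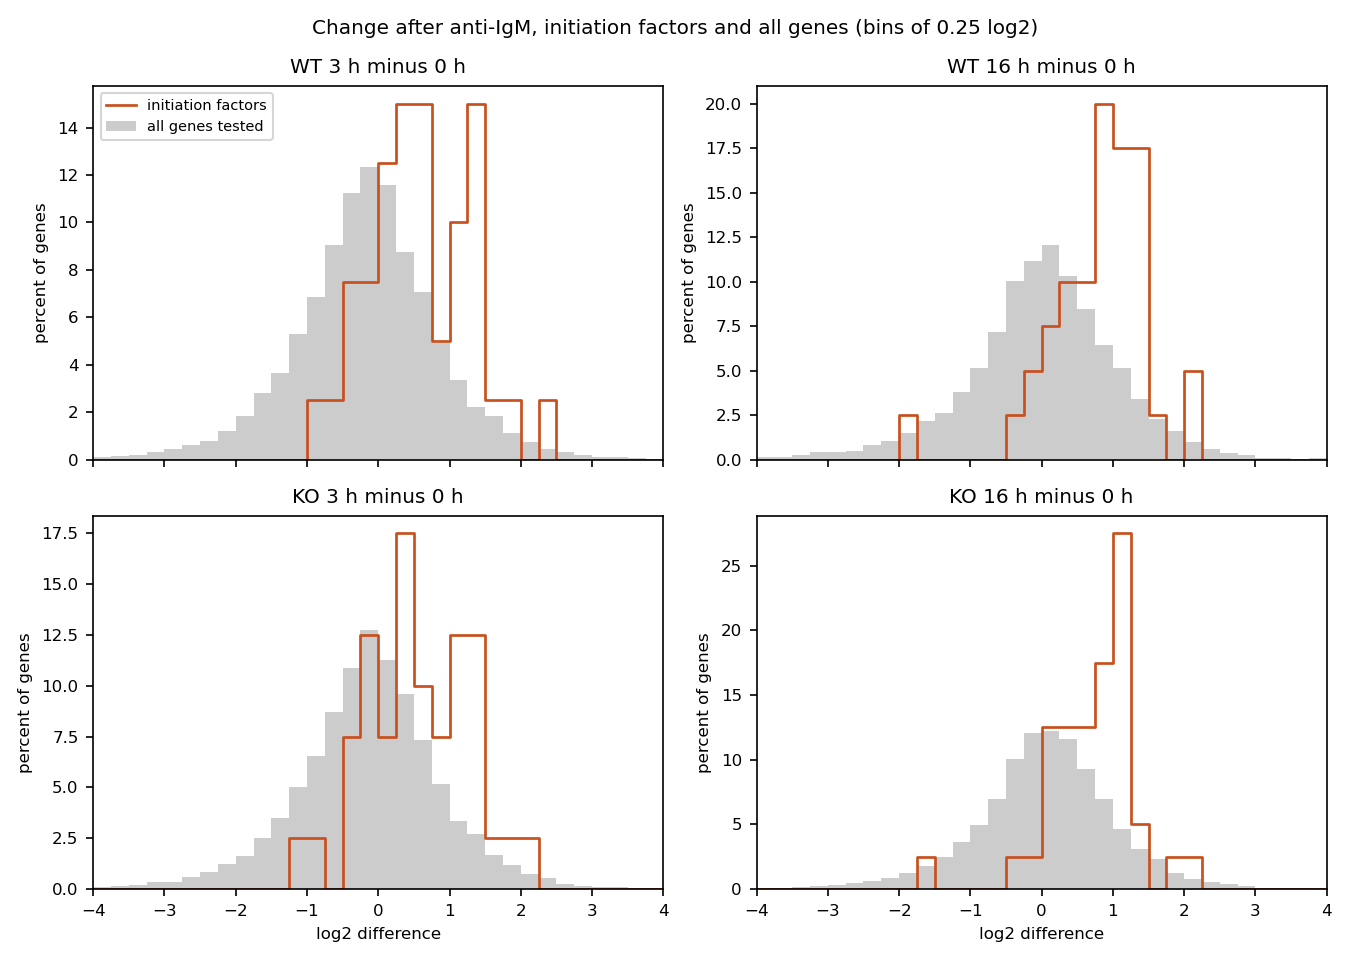
Percent of genes (y axis) by log2 change from 0 h in bins of 0.25 (x axis) for the 40 initiation factors (line) and all 14318 genes tested (grey), at 3 and 16 h in WT and KO cells. The members lie to the right of all genes, with medians of 0.57 and 0.89 in WT cells and 0.53 and 0.83 in KO cells.

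Of the factors that choose the start codon, the genes of eIF1A rose, while Eif1b, the only eIF1 gene tested, was not called higher against 0 h. Eif1ax and Eif1a both encode eIF1A, which sits in the decoding site of the small subunit during scanning. The Eif1ax probe set read 11.24, 11.05 and 11.10 at 0 h, 12.57, 12.49 and 12.46 at 3 h, 12.93, 12.95 and 12.80 at 8 h, and 13.20, 13.29 and 13.10 at 16 h in WT cells. In KO cells it read 10.94, 11.21 and 11.25 at 0 h, 12.71, 12.44 and 12.50 at 3 h, 12.94, 12.96 and 12.79 at 8 h, and 13.28, 13.23 and 13.09 at 16 h. The means were higher at each later time, and the arrays of 1 time did not overlap those of the next in either genotype. The changes from 0 h were 1.37, 1.76 and 2.06 in WT cells and 1.42, 1.76 and 2.06 in KO cells (SE 0.102, adjusted p 3.53e-13 to 2.2e-10). The order of the later times held for this brightest probe set only. The other 2 probe sets of Eif1ax changed by 1.42, 1.64 and 1.39 and by 1.83, 1.69 and 0.87 in WT cells, and the mean of the probe sets was lower at 16 h than at 3 h (-0.10 in WT and -0.16 in KO cells). Eif1a was highest at 3 h: its means at 0, 3, 8 and 16 h were 10.31, 12.08, 11.74 and 11.96 in WT cells and 10.29, 12.14, 11.61 and 11.72 in KO cells (SE of a change 0.152). Its difference between 3 and 16 h passed in KO cells (-0.42, adjusted p = 0.0427) and was -0.12 in WT cells (adjusted p = 0.639). Eif1ad, whose protein contains an eIF1A domain, was also highest at 3 h, with means of 10.05, 11.41, 11.06 and 10.98 in WT cells and 10.04, 11.56, 10.97 and 10.81 in KO cells. Its other probe set changed by 0.337, 0.429 and 0.501 in WT cells, highest at 16 h, and by 0.817, 0.403 and 0.779 in KO cells. That probe set was called higher in 3 of the 6 comparisons. Eif1b, a copy of the eIF1 gene, was lower at 3 h in both genotypes and not thereafter. Its changes were -0.31, 0.09 and 0.24 in WT cells and -0.41, 0.01 and 0.16 in KO cells (SE 0.118). Both calls at 3 h, adjusted p = 0.0439 and 0.00746, were lost when arrays were scaled to their medians (-0.07 and -0.26). Eif1 itself was not analysed here.

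Of the genes for initiator tRNA delivery, Eif2s2, which encodes the beta subunit of eIF2, rose early and held. Its means were 12.77, 14.02, 13.80 and 14.07 in WT cells and 12.82, 14.07, 13.95 and 13.99 in KO cells at 0, 3, 8 and 16 h (SE of a change 0.0998, adjusted p 2.57e-10 to 1.56e-08). Eif2a encodes a separate protein that can deliver initiator tRNA without eIF2 and is not the alpha subunit, whose gene Eif2s1 was not analysed here. Eif2a rose late, with changes of 0.36, 0.42 and 0.91 in WT cells and 0.39, 0.26 and 0.82 in KO cells (SE 0.114), all called except that at 8 h in KO cells (adjusted p = 0.096). Between 8 and 16 h it gained 0.50 in WT cells (adjusted p = 0.00707) and 0.57 in KO cells (adjusted p = 0.0038).

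Eif2d, whose protein releases tRNA and mRNA from used ribosomes and can place initiator tRNA, fell and came back. The probe set read 10.40, 10.53 and 10.62 at 0 h, 9.85, 9.49 and 9.38 at 3 h, 10.57, 10.30 and 10.43 at 8 h, and 11.10, 11.05 and 10.74 at 16 h in WT cells. The corresponding values in KO cells were 10.81, 10.62 and 10.56 at 0 h, 9.67, 9.60 and 9.46 at 3 h, 10.68, 10.34 and 10.56 at 8 h, and 11.12, 10.92 and 10.64 at 16 h. All 6 arrays at 3 h lay below every array at 0 h, and all arrays at 8 h lay above every array at 3 h. The change at 3 h was -0.94 in WT cells (SE 0.145, adjusted p = 1.05e-05) and -1.08 in KO cells (adjusted p = 1.61e-06). At 16 h it was 0.45 in WT cells (adjusted p = 0.0152) and 0.23 in KO cells (adjusted p = 0.238). From 3 to 16 h it rose by 1.39 and 1.32 in WT and KO cells (adjusted p = 1.33e-07 and 3.46e-07), the highest rise among the members in that interval.

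The exchange factor eIF2B, which phosphorylated eIF2 inhibits, had 4 of its 5 subunit genes higher in all 6 comparisons. The highest change among all 40 members was that of Eif2b3, the gamma subunit of its catalytic part. Its signals were 8.82, 8.80 and 8.70 at 0 h, 11.29, 11.08 and 10.96 at 3 h, 10.67, 11.00 and 10.74 at 8 h, and 10.87, 10.80 and 10.73 at 16 h in WT cells. In KO cells they were 8.89, 8.87 and 9.07 at 0 h, 11.32, 11.16 and 11.04 at 3 h, 10.96, 10.67 and 10.89 at 8 h, and 10.89, 10.58 and 10.98 at 16 h. Every stimulated array exceeded every unstimulated one by more than 1 unit, and most of the rise was present by 3 h. The changes were 2.34, 2.03 and 2.02 in WT cells and 2.23, 1.89 and 1.88 in KO cells (SE 0.128, adjusted p 4.01e-12 to 1.17e-10), a 5.06-fold rise at 3 h in WT cells. Eif2b5, the catalytic subunit, went from a mean of 9.80 at 0 h to 10.79, 10.83 and 11.05 at 3, 8 and 16 h in WT cells and from 9.96 to 10.83, 10.79 and 11.02 in KO cells (SE of a change 0.157). Eif2b4, the delta subunit, climbed with time, from a mean of 10.36 at 0 h to 10.91, 11.17 and 11.48 at 3, 8 and 16 h in WT cells and from 10.36 to 10.86, 11.34 and 11.56 in KO cells (SE of a change 0.136). Eif2b1, the alpha subunit that senses phosphorylated eIF2 together with the beta and delta subunits, went from a mean of 9.67 at 0 h to 10.38, 10.47 and 10.88 at 3, 8 and 16 h in WT cells and from 9.69 to 10.36, 10.38 and 10.55 in KO cells (SE of a change 0.152). Eif2b2, the beta subunit, did not pass in any comparison. Its means at 0, 3, 8 and 16 h were 11.29, 11.13, 11.30 and 11.37 in WT cells and 11.25, 11.20, 11.31 and 11.42 in KO cells, with changes of -0.16, 0.01 and 0.08 in WT and -0.05, 0.07 and 0.17 in KO cells (SE 0.0978, adjusted p 0.207 to 0.963). The result was the same under quantile normalization and under scaling to the medians: 4 subunit genes called higher in all 6 comparisons and Eif2b2 in none.

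The subunits of eIF3 did not move as a block. Eif3a, Eif3b, Eif3c, Eif3d, Eif3i, Eif3l and Eif3m were higher in all 6 comparisons, while Eif3e, Eif3f, Eif3h and Eif3k passed in 3 or fewer. Eif3b, a core subunit that carries an RNA-binding and a propeller domain, changed most. Its signals in WT cells were 10.75, 10.81 and 10.94 at 0 h, 12.40, 12.21 and 12.15 at 3 h, 12.14, 12.11 and 11.90 at 8 h, and 12.42, 12.20 and 12.38 at 16 h. The KO arrays gave 11.01, 10.92 and 10.58 at 0 h, 12.34, 12.17 and 12.12 at 3 h, 12.20, 11.95 and 11.95 at 8 h, and 12.50, 12.05 and 12.19 at 16 h. No stimulated array fell within the unstimulated range, and the changes were 1.42, 1.22 and 1.5 in WT cells and 1.38, 1.20 and 1.41 in KO cells (SE 0.128, adjusted p 1.35e-09 to 9.53e-08). Eif3d, which can itself bind the cap of some mRNAs, rose from a mean of 12.17 at 0 h to 13.32, 13.30 and 13.40 at 3, 8 and 16 h in WT cells and from 12.34 to 13.37, 13.44 and 13.39 in KO cells (SE of a change 0.155). The gene of the core subunit eIF3c rose from a mean of 12.87 at 0 h to 13.92, 13.97 and 14.11 at 3, 8 and 16 h in WT cells and from 12.97 to 13.93, 14.05 and 14.03 in KO cells (SE of a change 0.156). Eif3a, which encodes the largest subunit, rose from a mean of 13.77 at 0 h to 14.47, 14.35 and 14.63 at 3, 8 and 16 h in WT cells and from 13.65 to 14.42, 14.23 and 14.33 in KO cells (SE of a change 0.104). Eif3i, Eif3l and Eif3m had their highest mean at 16 h. Eif3i went from a mean of 13.40 at 0 h to 13.83, 14.08 and 14.54 at 3, 8 and 16 h in WT cells and from 13.45 to 13.89, 14.13 and 14.57 in KO cells (SE of a change 0.158). Eif3l rose from a mean of 12.02 at 0 h to 12.74, 13.01 and 13.35 at 3, 8 and 16 h in WT cells and from 12.12 to 12.75, 13.01 and 13.34 in KO cells (SE of a change 0.0943). Eif3m rose from a mean of 11.85 at 0 h to 12.33, 12.43 and 12.69 at 3, 8 and 16 h in WT cells and from 11.90 to 12.31, 12.43 and 12.74 in KO cells (SE of a change 0.104). Each of the 3 was higher at 16 h than at 3 h in both genotypes, with adjusted p from 2.38e-05 to 0.00968. With arrays scaled to their medians only the call of Eif3i in WT cells was kept (0.56, adjusted p = 0.041). With probe sets averaged, Eif3l in WT cells (-0.01) and Eif3m in KO cells (-0.62) changed sign over that interval. Against 0 h, the call of Eif3i at 3 h in KO cells was lost under quantile normalization (0.31, adjusted p = 0.0641) and that of Eif3m at 8 h in KO cells under median scaling (0.56, adjusted p = 0.052).

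The 4 subunit genes that stayed behind belong, like Eif3a, Eif3c, Eif3l and Eif3m, to the ring of subunits that form the body of eIF3. Eif3f, which also has been described as a partner of mTOR and S6 kinase, had the lowest early change of the complex. In WT cells it read 14.13, 14.35 and 14.20 at 0 h, 13.95, 13.89 and 13.63 at 3 h, 13.79, 14.09 and 13.72 at 8 h, and 14.12, 14.37 and 14.03 at 16 h. KO cells gave 14.24, 14.23 and 14.00 at 0 h, 13.77, 14.03 and 13.80 at 3 h, 13.72, 14.21 and 14.03 at 8 h, and 14.24, 14.52 and 14.16 at 16 h. The WT arrays at 3 and 8 h lay below those at 0 h, while the KO arrays overlapped at all times. Its changes were -0.41, -0.36 and -0.05 in WT cells and -0.29, -0.17 and 0.15 in KO cells (SE 0.141), and only that at 3 h in WT cells passed (adjusted p = 0.0251). That call was lost when arrays were scaled to their medians (-0.17), while quantile normalization added calls lower at 8 h in WT cells and at 3 h in KO cells (-0.37 and -0.33). Eif3h went from a mean of 13.28 at 0 h to 13.20, 13.18 and 13.49 at 3, 8 and 16 h in WT cells and from 13.39 to 13.18, 13.25 and 13.57 in KO cells (SE of a change 0.0932). It passed in none of the 6 comparisons with 0 h, with calls lower at 3 and 8 h in KO cells under quantile normalization (-0.34 and -0.27). Eif3e went from a mean of 13.86 at 0 h to 13.99, 14.02 and 14.29 at 3, 8 and 16 h in WT cells and from 13.95 to 14.02, 14.11 and 14.36 in KO cells (SE of a change 0.0966). It was called higher at 16 h in both genotypes, and neither call was kept under quantile normalization. Eif3k went from a mean of 12.56 at 0 h to 12.60, 12.80 and 13.07 at 3, 8 and 16 h in WT cells and from 12.62 to 12.62, 12.93 and 13.10 in KO cells (SE of a change 0.104). It was called higher at 16 h in both genotypes and at 8 h in KO cells. The call at 8 h was lost under quantile normalization (0.175, adjusted p = 0.187) and median scaling (adjusted p = 0.264), and that at 16 h in KO cells under median scaling (adjusted p = 0.0909). Eif3e, Eif3h and Eif3k were also higher at 16 h than at 3 h in both genotypes, and none of these calls was kept with arrays scaled to their medians. In human cells the mRNAs of EIF3E, EIF3F and EIF3H are known to begin with a run of pyrimidines, the signature of the mRNAs of ribosomal proteins and elongation factors, whose translation mTOR controls. Eif3g was not analysed here, nor was Eif3j, whose probe sets carry several symbols.

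Among the helicases that unwind the leader of the mRNA, Eif4a1 rose and its close copy Eif4a2 did not. The Eif4a1 probe set read 12.62, 12.42 and 13.16 at 0 h, 14.13, 14.10 and 14.52 at 3 h, 13.95, 13.96 and 14.32 at 8 h, and 13.93, 13.96 and 14.34 at 16 h in WT cells. In KO cells it read 12.76, 12.69 and 13.33 at 0 h, 14.40, 14.14 and 14.49 at 3 h, 14.21, 13.83 and 14.53 at 8 h, and 14.00, 13.66 and 14.42 at 16 h. Replicate 3 was the highest array in all 8 groups, and no stimulated array fell to the unstimulated level. The changes were 1.52, 1.34 and 1.34 in WT cells and 1.42, 1.26 and 1.10 in KO cells (SE 0.218, adjusted p 4.17e-06 to 0.000249). The Eif4a2 probe set read 14.10, 14.05 and 14.57 at 0 h, 13.82, 13.51 and 14.05 at 3 h, 14.15, 13.76 and 14.10 at 8 h, and 13.98, 13.57 and 13.89 at 16 h in WT cells. Its readings in KO cells were 14.43, 14.13 and 14.38 at 0 h, 14.16, 13.60 and 14.24 at 3 h, 14.32, 13.94 and 14.36 at 8 h, and 13.90, 13.45 and 14.11 at 16 h. Every group mean after stimulation was below that at 0 h, but the arrays overlapped at 8 h in both genotypes and at 3 h in KO cells. The changes were -0.45, -0.24 and -0.43 in WT cells and -0.32, -0.11 and -0.50 in KO cells (SE 0.196, adjusted p 0.0518 to 0.745), none of them called. Quantile normalization called it lower at 16 h in both genotypes (-0.63 and -0.62, adjusted p = 0.0175 and 0.0211). The helicase cofactors Eif4b and Eif4h were called higher in all 6 comparisons. Eif4b rose from a mean of 12.20 at 0 h to 12.69, 12.77 and 12.95 at 3, 8 and 16 h in WT cells and from 12.36 to 12.74, 12.91 and 13.04 in KO cells (SE of a change 0.0978). Eif4h rose from a mean of 13.13 at 0 h to 13.77, 13.71 and 14.04 at 3, 8 and 16 h in WT cells and from 13.21 to 13.77, 13.75 and 14.04 in KO cells (SE of a change 0.146).

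The cap-binding genes went in both directions. Eif4e, which encodes the main cap-binding protein, read 11.37, 11.24 and 11.62 at 0 h, 12.87, 12.81 and 13.03 at 3 h, 12.47, 12.66 and 12.83 at 8 h, and 12.63, 12.80 and 13.13 at 16 h in WT cells. In KO cells it read 11.49, 11.33 and 11.71 at 0 h, 13.05, 12.88 and 13.11 at 3 h, 12.61, 12.05 and 12.83 at 8 h, and 12.50, 12.07 and 13.19 at 16 h. No stimulated array overlapped the unstimulated ones, and the KO arrays at 8 and 16 h were the most spread. Its changes were 1.49, 1.25 and 1.44 in WT cells and 1.5, 0.98 and 1.08 in KO cells (SE 0.212, adjusted p 3.48e-06 to 0.000741). Eif4e3 encodes a relative that binds the cap in a different way and has been described as holding back the growth-promoting activity of eIF4E. It was the only member lower in all 6 comparisons. The WT arrays read 9.98, 10.15 and 10.25 at 0 h, 9.64, 9.33 and 9.65 at 3 h, 8.55, 8.99 and 9.0 at 8 h, and 8.22, 8.51 and 8.40 at 16 h. The KO arrays read 10.16, 10.27 and 10.18 at 0 h, 9.19, 9.44 and 9.51 at 3 h, 9.02, 9.13 and 9.0 at 8 h, and 8.59, 8.74 and 8.57 at 16 h. In both genotypes the mean was lower at each later time, and the arrays of 0, 3, 8 and 16 h did not overlap. The changes were -0.59, -1.28 and -1.75 in WT cells and -0.82, -1.16 and -1.57 in KO cells (SE 0.145, adjusted p 7.95e-10 to 0.00198), which left 0.297 and 0.337 of the starting signal at 16 h. The call at 3 h in WT cells was lost when arrays were scaled to their medians (-0.35, adjusted p = 0.207). Eif4e2, whose protein binds the cap without eIF4G and represses translation, was higher in all 6 and rose from a mean of 10.73 at 0 h to 11.30, 11.38 and 11.55 at 3, 8 and 16 h in WT cells and from 10.73 to 11.14, 11.21 and 11.42 in KO cells (SE of a change 0.157). Its call at 3 h in KO cells was lost under quantile normalization (0.41, adjusted p = 0.0574). Eif4enif1, which carries eIF4E into the nucleus and into processing bodies, changed by 0.10, 0.28 and 0.60 in WT and -0.06, 0.26 and 0.53 in KO cells (SE 0.113) and was called higher at 16 h in both genotypes, in KO cells not under median scaling (adjusted p = 0.0928).

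**Figure D2:**
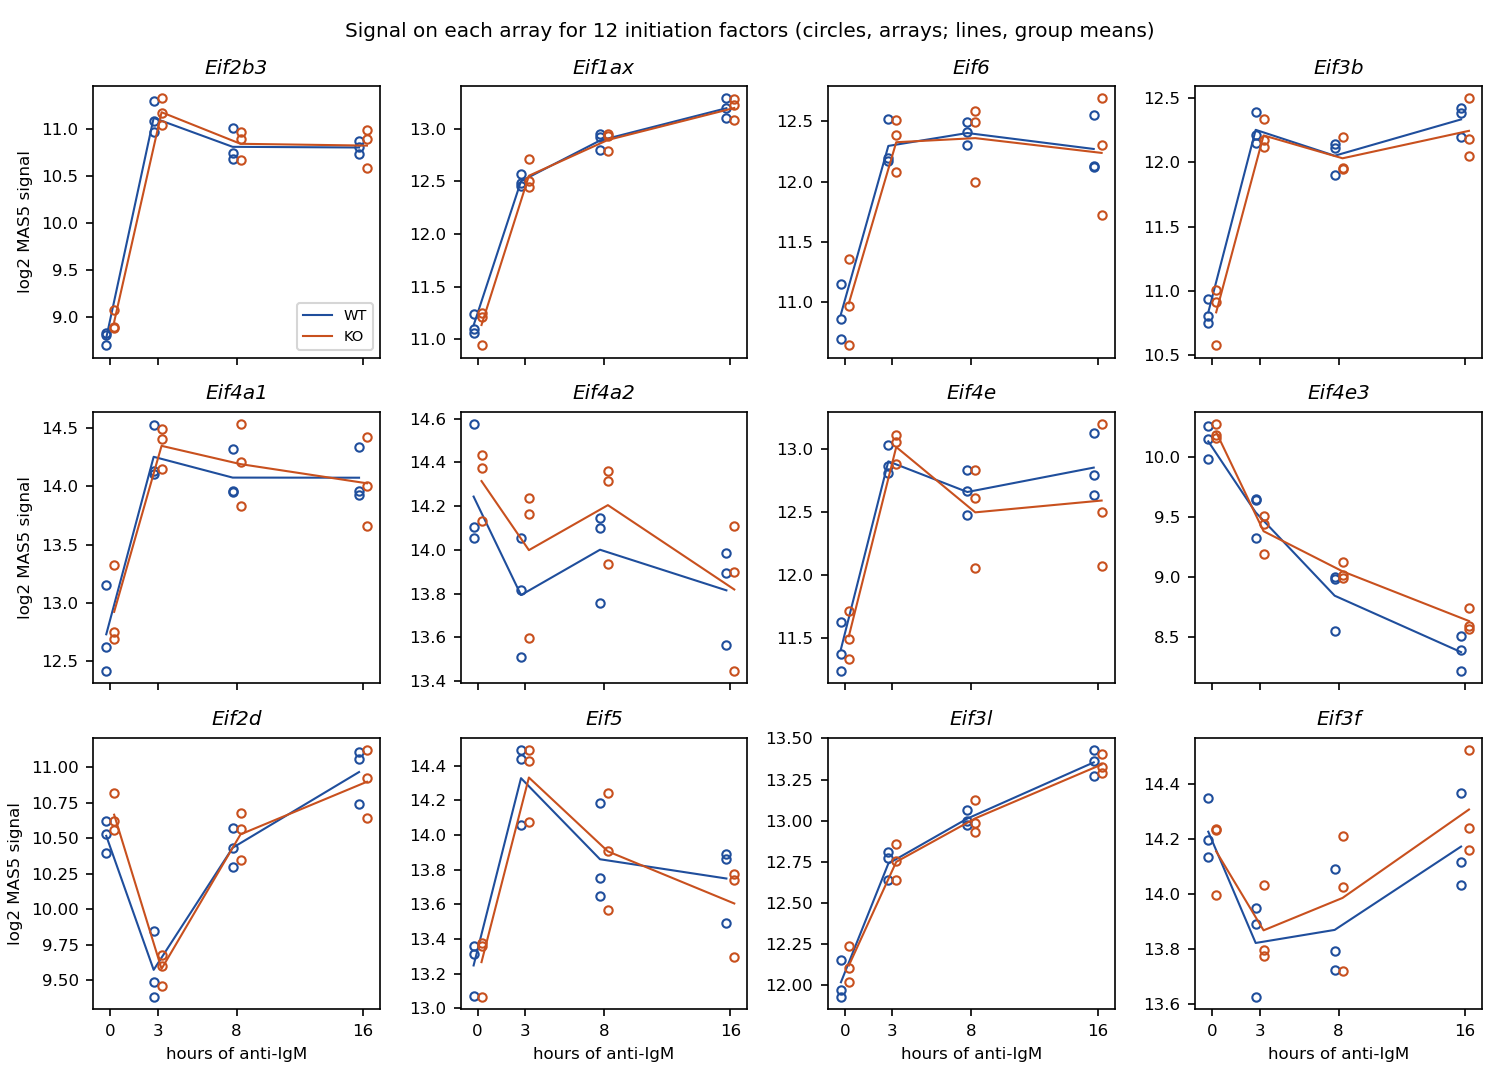
Log2 MAS5 signal on each array (circles) and group means (lines) against hours of anti-IgM for 12 initiation factors in WT and KO cells, each panel with its own y axis. Eif2b3, Eif1ax, Eif6, Eif3b, Eif4a1 and Eif4e sit above their 0 h arrays at all later times, Eif4e3 is lower at each later time, and Eif2d is lowest at 3 h.

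The start regions of 4 members are shown because these genes stand for the divergent responses: Eif4e and Eif4a1, which rose, and Eif4a2 and Eif3f, which did not. Eif4e is a textbook target of MYC, a transcription factor that binds the letters CACGTG. The sequences are from RefSeq, build GRCm38.p6, each from 250 bases before an annotated start to 20 bases from it, and read in the direction of the gene. That of Eif4e lies at chr3:138527018-138527287 on the forward strand, that of Eif4a1 at chr11:69672404-69672673 on the reverse strand, that of Eif4a2 at chr16:23107218-23107487 on the forward strand and that of Eif3f at chr7:108934165-108934434 on the forward strand. Capitals mark CACGTG, which reads the same on both strands, and in Eif3f also the run of C and T that begins beside the annotated start.
Eif4e: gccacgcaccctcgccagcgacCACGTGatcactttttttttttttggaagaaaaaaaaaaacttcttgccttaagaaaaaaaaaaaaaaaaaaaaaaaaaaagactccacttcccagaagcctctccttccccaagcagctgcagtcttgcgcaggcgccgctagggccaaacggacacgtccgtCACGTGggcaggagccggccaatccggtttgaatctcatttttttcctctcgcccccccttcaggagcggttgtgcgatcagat
Eif4a1: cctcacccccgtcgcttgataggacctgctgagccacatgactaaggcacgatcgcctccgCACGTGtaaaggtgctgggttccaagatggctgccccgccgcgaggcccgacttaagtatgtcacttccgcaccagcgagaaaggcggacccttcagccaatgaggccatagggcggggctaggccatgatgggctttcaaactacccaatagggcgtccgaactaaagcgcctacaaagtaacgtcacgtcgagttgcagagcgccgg
Eif4a2: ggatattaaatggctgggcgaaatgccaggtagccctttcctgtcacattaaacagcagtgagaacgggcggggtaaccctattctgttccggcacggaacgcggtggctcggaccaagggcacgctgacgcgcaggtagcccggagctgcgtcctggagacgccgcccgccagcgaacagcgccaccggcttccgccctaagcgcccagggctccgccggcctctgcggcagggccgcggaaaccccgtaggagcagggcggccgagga
Eif3f: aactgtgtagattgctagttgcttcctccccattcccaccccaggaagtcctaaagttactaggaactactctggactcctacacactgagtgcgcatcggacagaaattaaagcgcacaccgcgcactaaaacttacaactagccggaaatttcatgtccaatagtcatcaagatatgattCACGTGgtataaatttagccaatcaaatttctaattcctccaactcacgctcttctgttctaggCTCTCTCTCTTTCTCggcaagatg
Counted from the annotated start, CACGTG begins at -228 and -64 in Eif4e, at -189 in Eif4a1 and at -68 in Eif3f, and it is not among the letters printed for Eif4a2. RefSeq gives Eif4e a second start, at position 138526191, whose window holds no CACGTG; the start printed here is the one of the 2 with matches. The run in Eif3f is 15 bases long, and 0.855% of all windows have a run at the start at least as long. Such a run is not particular to the members that did not rise: that of Eif2b5 is 21 bases long and that of Eif3l 10, and both genes were higher in all 6 comparisons. Of the other eIF3 genes that stayed behind, Eif3k had no run at its annotated start, and Eif3e and Eif3h had no window. In windows of 300 bases, which extend 50 past the start, CACGTG was found in at least 1 window of 9 of the 32 members that have any (28.1%), against 8.09% of the 27025 genes in the table. The 9 were Eif1b, Eif3a, Eif3f, Eif3k, Eif4a1, Eif4e, Eif4h, Eif5a and Eif5a2. Of the 19 members with a window that were higher in all 6 comparisons 5 had it, and of the 12 other tested members 4. The shares of 28.1% and 8.09% are not from like sets. The genes in the table were not limited to those tested here, and a gene with several windows, such as Eif5a, has more places for a match. A match describes the letters and says nothing about binding.

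Of the scaffolds and the eIF4E-binding repressors, Eif4ebp1 was the only gene higher in all 6 comparisons on its brightest probe set. Eif4g2, whose protein lacks the binding site for eIF4E and serves cap-independent initiation, went from a mean of 14.29 at 0 h to 14.30, 14.32 and 14.75 at 3, 8 and 16 h in WT cells and from 14.22 to 14.39, 14.39 and 14.70 in KO cells (SE of a change 0.133). It was called higher at 16 h in both genotypes. Neither call was kept under quantile normalization, nor that in KO cells under median scaling. The next brightest probe set of Eif4g2 was called higher in all 6 comparisons, and the dimmer ones in at most 1. Its changes were 0.246, 0.245 and 0.632 in WT cells and 0.384, 0.349 and 0.649 in KO cells. Eif4g3, a scaffold that binds eIF4E, went from a mean of 11.29 at 0 h to 11.24, 11.49 and 11.24 at 3, 8 and 16 h in WT cells and from 11.27 to 11.26, 11.42 and 11.25 in KO cells (SE of a change 0.0988) and did not pass in any comparison. Eif4g1 was not analysed here. The arrays of Eif4ebp1, the best known of the repressors, read 9.99, 9.83 and 9.96 at 0 h, 11.09, 10.69 and 10.52 at 3 h, 10.78, 11.09 and 10.77 at 8 h, and 10.85, 11.17 and 10.93 at 16 h in WT cells. In KO cells they read 9.86, 10.22 and 9.83 at 0 h, 11.12, 11.23 and 10.77 at 3 h, 11.00, 11.46 and 10.83 at 8 h, and 10.85, 10.96 and 10.96 at 16 h. The stimulated arrays all lay above the unstimulated ones, with changes of 0.84, 0.95 and 1.05 in WT and 1.07, 1.13 and 0.95 in KO cells (SE 0.166, adjusted p 8.89e-06 to 0.000234). Eif4ebp2 read 11.03, 11.09 and 10.13 at 0 h, 11.02, 11.26 and 10.20 at 3 h, 10.98, 11.28 and 10.38 at 8 h, and 11.26, 11.57 and 10.62 at 16 h in WT cells. In KO cells it read 11.01, 11.19 and 10.42 at 0 h, 10.83, 11.45 and 10.45 at 3 h, 10.88, 11.35 and 10.35 at 8 h, and 11.38, 11.63 and 10.52 at 16 h. Replicate 3 was the lowest and replicate 2 the highest in all 8 groups, and the range within each group was wider than any change with time. Within each replicate number the reading at 16 h was above that at 0 h in both genotypes, and the fit did not pair arrays by that number. The changes of Eif4ebp2 were 0.08, 0.13 and 0.40 in WT and 0.04, -0.02 and 0.30 in KO cells with the highest SE of the members, 0.355. None passed (adjusted p 0.431 to 0.982). Eif4ebp3 was not analysed here.

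The late factors rose. Eif6, which keeps the large subunit from joining too early and also serves its assembly, had means of 10.90, 12.29, 12.40 and 12.27 in WT cells and 10.99, 12.33, 12.36 and 12.24 in KO cells at 0, 3, 8 and 16 h (SE of a change 0.211, adjusted p 4.06e-06 to 4.12e-05). Eif5b, the GTPase of subunit joining, rose from a mean of 10.45 at 0 h to 11.77, 11.37 and 11.73 at 3, 8 and 16 h in WT cells and from 10.46 to 11.65, 11.33 and 11.59 in KO cells (SE of a change 0.121). Both were higher in all 6 comparisons. Eif5, the activator of the eIF2 GTPase, peaked at 3 h and then declined. The WT arrays read 13.31, 13.36 and 13.07 at 0 h, 14.49, 14.44 and 14.06 at 3 h, 13.75, 14.18 and 13.65 at 8 h, and 13.86, 13.89 and 13.49 at 16 h. Those of KO cells read 13.37, 13.36 and 13.07 at 0 h, 14.43, 14.49 and 14.07 at 3 h, 13.91, 14.24 and 13.57 at 8 h, and 13.77, 13.74 and 13.30 at 16 h. Replicate 3 was the lowest array in all 8 groups, and at 16 h the KO arrays overlapped those at 0 h. The changes were 1.08, 0.61 and 0.50 in WT cells and 1.06, 0.64 and 0.34 in KO cells (SE 0.181), called except at 16 h in KO cells (adjusted p = 0.163). The call at 16 h in WT cells was lost under quantile normalization (0.22, adjusted p = 0.336). From 3 to 16 h the signal fell in both genotypes (-0.58, adjusted p = 0.0182 in WT cells, and -0.73, adjusted p = 0.00361 in KO cells).

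The gene of eIF5A, which eases peptide bond formation and termination and carries the modified amino acid hypusine, was higher in all 6 comparisons. Eif5a rose from a mean of 14.36 at 0 h to 14.83, 14.92 and 15.20 at 3, 8 and 16 h in WT cells and from 14.34 to 14.94, 15.08 and 15.22 in KO cells (SE of a change 0.144), with changes of 0.46, 0.56 and 0.83 in WT and 0.60, 0.74 and 0.88 in KO cells. Its second probe set gave higher changes, 1.36, 1.68 and 1.81 in WT cells and 1.45, 1.57 and 1.63 in KO cells. Eif5a2, the second gene of this protein, peaked at 8 h instead, with means of 7.64, 8.06, 8.82 and 8.43 in WT cells and 7.74, 8.21, 9.07 and 8.40 in KO cells at 0, 3, 8 and 16 h (SE of a change 0.248). It was called higher at 8 and 16 h in both genotypes, at 16 h in KO cells not under median scaling (adjusted p = 0.0866), and also at 3 h under quantile normalization (0.64 in WT and 0.65 in KO cells). Dhps and Dohh, which encode the enzymes that make hypusine on eIF5A, were both higher at all 3 times in both genotypes, by 0.64 and 1.19 at 3 h in WT cells and by 0.64 and 1.24 in KO cells.

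The later times were compared with each other to ask whether the pattern set by 3 h persisted. Between 3 and 8 h 4 members were higher and 2 lower in WT cells, where 10.3% of all genes were higher and 5.57% lower. In KO cells 7 were higher and 2 lower, beside 13.2% and 6.01%. Between 8 and 16 h 4 were higher and 1 lower in WT cells, beside 3.83% and 3.92%, and 2 higher and 0 lower in KO cells, beside 2.4% and 2.26%. From 3 to 16 h 14 were higher and 3 lower in WT cells, beside 17.7% and 11% of all genes, and 14 higher and 5 lower in KO cells, beside 18.3% and 10.3%. Eif1ax, Eif1b, Eif2a, Eif2b4, Eif2d, Eif3e, Eif3h, Eif3i, Eif3k, Eif3l, Eif3m and Eif4enif1 were higher, and Eif1ad, Eif4e3 and Eif5 lower, in both genotypes over that interval. Between 3 and 8 h the members' counts were near the shares of all genes, and over each interval they depended on the scaling. With arrays scaled to their medians, 3 members were higher and 2 lower from 3 to 16 h in WT cells and 1 higher and 3 lower in KO cells, as the share of higher genes among all those called went from 61.7% to 46.2% and from 63.9% to 48.8%. From 3 to 8 h the same scaling gave 1 higher and 1 lower in WT cells and 1 higher and 0 lower in KO cells, and from 8 to 16 h 0 in each, as that share went from 64.9% to 51.5%, from 68.7% to 54.5% and, in WT cells from 8 to 16 h, from 49.5% to 31.2%. Without the 4 arrays of WT replicate 2, the count from 3 to 16 h in WT cells was 8 in place of 17, and that from 8 to 16 h was 0 in place of 5. It was also 0 without the array of WT replicate 2 at 16 h alone. The count from 3 to 16 h in WT cells was 11 without WT replicate 2 at 3 h, and that from 3 to 8 h in KO cells was 3 in place of 9 without KO replicate 1 at 8 h.

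The comparison of KO with WT cells asks whether NFATc1 is needed for these levels. None of the 40 members was called at 0, 3, 8 or 16 h, averaged over the 4 times, or in limma's F-test of whether the change with time differed between the genotypes. The shares of all genes called were 0.0349%, 0.0559%, 0.0978% and 0.615% at the 4 times, 1.21% in the averaged comparison and 0.014% in the F-test. At an unadjusted p under 0.05 there were 0 members at 0, 3 and 8 h, 2 at 16 h, 2 averaged over the times and 0 in the F-test. Averaged over the times, the differences ran from -0.14 for Eif3a to 0.12 for Eif4a2, and all 40 of the 95% intervals lay within 0.5 of 0, a limit set after the values were seen. The widest was that of Eif4ebp2, from -0.31 to 0.42. The median size of a difference was 0.0539 among the members and 0.109 among all genes. At a single time the intervals were wider, and 32 to 35 of the 40 lay within 0.5 of 0.

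The 3 members with the smallest p were Eif3a, Eif4b and Eif4e2. Eif3a averaged 14.16 in KO and 14.30 in WT cells (difference -0.14, SE 0.0518, adjusted p = 0.273). At 16 h its arrays read 14.63, 14.78 and 14.48 in WT cells and 14.45, 14.30 and 14.25 in KO cells, which did not overlap (difference -0.29, SE 0.104, adjusted p = 0.375). Under quantile normalization its averaged difference was -0.19 and passed (adjusted p = 0.0477), while its adjusted p under the other settings ran from 0.124 to 1. Eif4b averaged 12.76 in KO and 12.65 in WT cells (difference 0.11, SE 0.0489, adjusted p = 0.442). Eif4e2 averaged 11.12 and 11.24 (difference -0.12, SE 0.0783, adjusted p = 0.75). Without the arrays of WT replicate 2 these differences were -0.11, 0.07 and -0.04. Eif4e3 was the only other member whose KO and WT arrays did not overlap at 16 h (0.26, 95% interval -0.04 to 0.56). These 2 of 40 members stand beside 10.2% of all genes whose arrays did not overlap between the genotypes at that time. The lowest single difference was that of Eif2b1 at 16 h (-0.33, adjusted p = 0.661).

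The responses of the genotypes to anti-IgM come from different arrays and can be set side by side, but the lists of calls are not independent. The fit covered the arrays of both genotypes together, so each gene had the same SE in WT and KO cells. For 21 of 24 arrays the best partner of the other genotype also carried their own replicate number. At 3 h 26 members were higher in WT and 26 in KO cells, and the same 26 genes made up both lists. At 8 h both lists held 27, of which 26 (96.3% of each) were shared, with Eif2a called in WT and Eif3k in KO cells alone. At 16 h the 30 of KO cells were all among the 32 of WT cells, 93.8% of the latter, which also held Eif2d and Eif5. Of the 4 members lower at 3 h in WT cells 3 were lower in KO cells, all but Eif3f. The same overlap was not counted over all genes, so it is not read as particular to the members. The difference between the genotypes in the change itself was called for 0 of the 40 members at 3, 8 or 16 h (limma, with 0 at an unadjusted p under 0.05), beside 0%, 0% and 0.021% of all genes. The plot of genotype differences shows the averaged estimates.

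**Figure D3:**
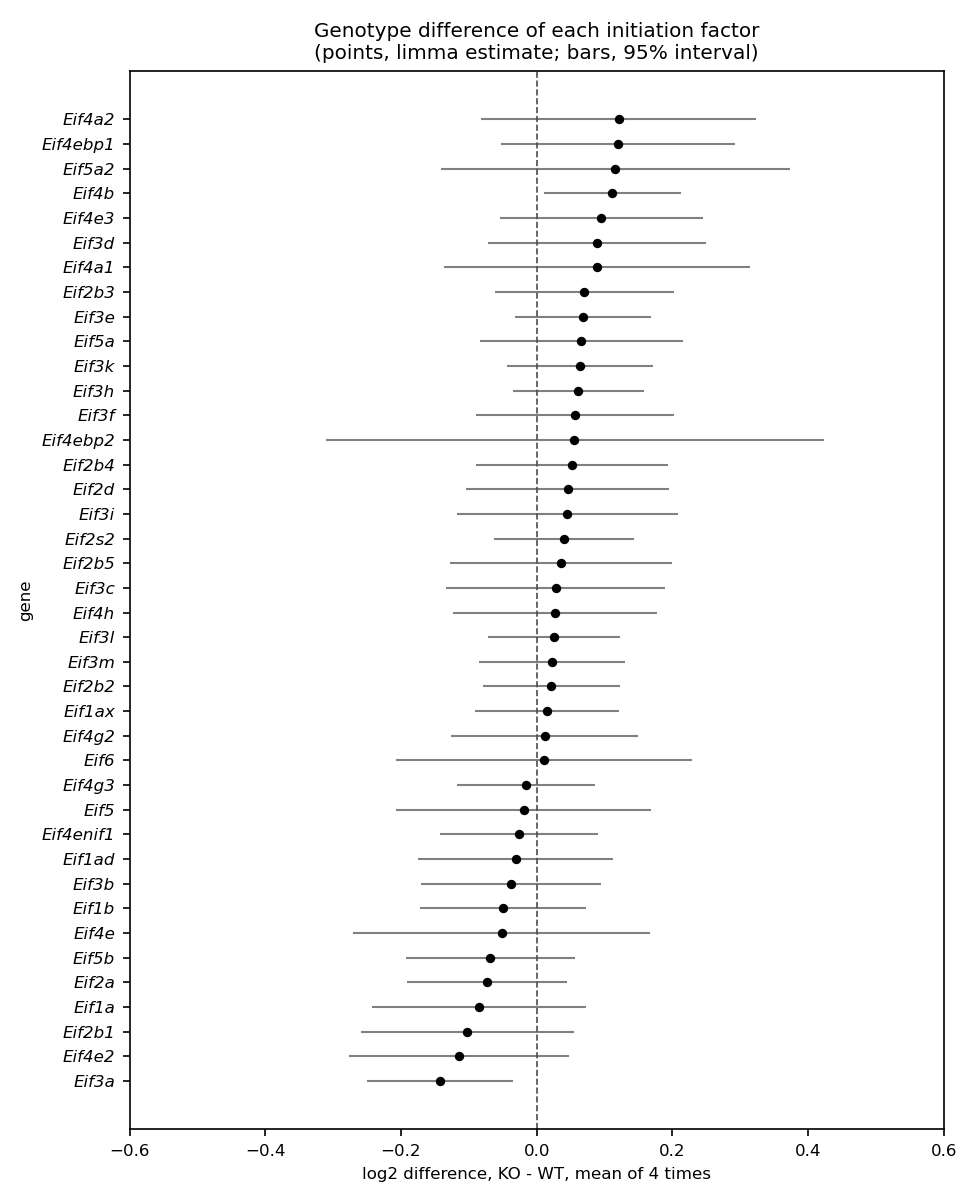
Difference between KO and WT cells averaged over 0, 3, 8 and 16 h (x axis, log2; points, limma estimates from 24 arrays; bars, 95% intervals; dashed line, no difference) for each of the 40 initiation factors (y axis). All intervals lie between -0.31 and 0.42, and no member passed after adjustment.

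Several members were measured by more than 1 probe set, which bears on how firmly a direction can be read. The 40 members had 110 probe sets above the filter level, and 29 members had several. Of the 70 that were not the brightest of their gene, 50 had a mean change of the same sign as the brightest and 20 of the opposite sign. Probe sets were called in opposite directions for Eif2d, Eif4h and Eif5. The brightest Eif5 probe set was called higher in 5 of 6 comparisons and 3 others at 3 h in both genotypes, whereas the dimmest was lower in 4, with -0.90 and -1.52 at 8 and 16 h in WT cells. For Eif4h, 3 probe sets were higher in all 6 comparisons, whereas a dim probe set was lower in 3 (-2.01 at 8 h and -2.08 at 16 h in KO cells) and the dimmest in 1. For Eif2d, the brightest was both lower at 3 h and higher at 16 h, and the next brightest was lower at 3 h in both genotypes (-0.84 and -0.81). The rises of Eif4e, Eif4a1 and Eif1ax did not rest on 1 probe set. Eif4e changed by 1.82 and 1.67 at 3 h in WT cells on its 2 next brightest probe sets, Eif4a1 by 1.58 and 1.51, and Eif1ax by 1.42 and 1.83. Eif4e3 fell on both of its probe sets in all 6 comparisons. Averaging the probe sets of a gene lowered the number of members called in WT cells from 30 to 26 at 3 h, from 28 to 22 at 8 h and from 33 to 25 at 16 h. Of the 179 calls against 0 h it lost 31 with the same direction. It turned the sign of a further 6, in Eif3m, Eif4g2, Eif4h and Eif5.

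Other parts of the translation machinery were followed through lists of genes. In WT cells 17% of all genes were higher and 21.3% lower at 3 h, and 20.9% and 18.5% at 16 h. The shares in KO cells were 16.6% and 21.7% at 3 h, and 19.4% and 16.4% at 16 h. Of 21 genes for cytosolic aminoacyl-tRNA synthetases and their partners, which load tRNAs, 19 were higher and 1 lower at 3 h in WT cells, and 20 and 0 at 16 h. In KO cells the counts were 18 and 1, and 20 and 1. Tars, Aimp2 and Aars led at 3 h in WT cells (1.97, 1.83 and 1.82), and Vars was the 1 that was lower (-0.66). The list's median was 1.27 at 3 h in WT cells, beside 0.57 for the initiation factors and -0.14 for all genes. Of 11 elongation and termination genes 6 were higher and 0 lower at 3 h in WT cells and 5 higher and 1 lower in KO cells. Dph1 and Dph2, which modify the elongation factor eEF2, changed by 3.13 and 1.41 in WT cells, and Etf1, the termination factor, by 1.76. The main elongation factor genes were not among them: Eef1a1 changed by -0.18 and Eef2 by -0.10. Of 8 scanning, reinitiation and recycling genes 4 were higher and 1 lower, led by Abce1, which splits ribosomes (1.43). Mcts1, the partner of Denr in reinitiation, was lower at 3 h (-0.34 in WT and -0.44 in KO cells) and higher at 16 h (0.68 and 0.69), and Denr was higher at both times (0.54 and 1.35 in WT cells).

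Counts for the regulators of initiation are read beside the shares of all genes in WT cells, 17% higher and 21.3% lower at 3 h and 20.9% and 18.5% at 16 h. Among the 6 genes for eIF2 kinases and the third eIF2 subunit, Eif2s3x was higher at 3 h (0.88 in WT and 0.76 in KO cells). The kinase genes Eif2ak2 and Eif2ak3 were lower (-1.19 and -0.47 in WT cells), and Eif2ak3, the kinase of endoplasmic reticulum stress, reached -1.93 at 16 h in WT and -1.80 in KO cells. Of 10 genes of the integrated stress response, the programme that follows phosphorylation of eIF2, 6 were higher and 2 lower at 3 h in WT cells, led by Chac1 (3.30) and Trib3 (2.79). At 16 h 1 was higher and 3 lower, near the shares of all genes. Atf4, its central transcription factor, went from 0.47 at 3 h to -0.54 at 16 h. Ppp1r15a, which directs the removal of that phosphate, was lower at both times (-1.08 and -2.78). Of 17 genes of the mTOR pathway 4 were higher and 4 lower at 3 h in WT cells, also near the shares of all genes. The sestrin genes Sesn3 and Sesn1, which restrain mTOR, fell (-2.11 and -2.07), as did Pdcd4, an inhibitor of eIF4A (-1.60). Larp1, whose protein binds mRNAs that begin with pyrimidines, rose (1.93). Of 10 eIF4E kinases and cap partners 3 were higher and 3 lower, with Pabpc4 at 1.40 and the kinase genes Mknk2 and Mknk1 at -1.42 and -0.96. Of 7 genes of the MYC network 2 were higher and 2 lower: Myc rose (1.76) and Mxd4, an antagonist, fell (-2.99). In the averaged comparison of the genotypes, Sesn1 and Sesn3 were called higher in KO cells (0.32 and 0.41, adjusted p = 0.0453 and 0.00572) and no other gene of these pathway lists was called. Of 9 genes known to respond to B cell activation 6 were higher and 0 lower at 3 h in both genotypes, among them Egr2 (3.49 in WT and 4.29 in KO cells), which was lower in KO cells in the averaged comparison (-1.03, adjusted p = 0.002).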

How the data were processed

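RNA of 24 samples was measured on Affymetrix mouse arrays, 1 per sample. The deposited values are log2 signals, made with MAS5 per the submitters' processing notes, with no version given. The trimmed mean of the linear signal (2% off each end) was 500 on every array. Probe sets were named from the platform annotation, in which 34958 of 35890 probe sets carry 1 gene symbol. A probe set was kept when above the 40th percentile of its own array, over all 45101 probe sets and between 5.375 and 6.425, on at least 3 arrays. That left 26671 probe sets with 1 symbol and, with the brightest per gene over 24 arrays, 14318 genes.

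limma 3.58.1 in R 4.3.3 was fitted with 1 mean per group over all 24 arrays and an intensity trend, with 16 residual and 6.79 prior degrees of freedom. Benjamini-Hochberg adjustment ran over the 14318 genes, and a call is an adjusted p under 0.05. An SE or 95% interval is limma's, and the small number of arrays, 3 a group, sets its width. The script was checked on simulated data before use. The alternatives covered normalization, filter, probe sets, blocks, a minimum change of 1.5-fold and single arrays left out. Figures were drawn with matplotlib 3.10.9.

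The members and gene lists were chosen with earlier results of these data known. Values by group are given for the 6 members with the highest and the 6 with the lowest mean change from 0 h, the 3 with the smallest p between genotypes, members with discordant probe sets, and a set covering each step. From each other list up to 4 called genes with the largest changes were named. The comparisons of 16 with 3 h, the CACGTG motif, the pyrimidine run, the 4 start regions, the plotted genes, Vars, Eef1a1, Eef2, Atf4, Mcts1, Denr and Egr2 were chosen after their values were seen.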

Additional observations from a re-analysis of the deposited data

How the results depend on the processing

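Of the 179 member calls against 0 h, retested under 37 other settings, 6406 of 6623 retests kept the call and its direction, 211 lost it and 6 changed sign, and 85 calls were kept in every setting. The counts moved by over 1.5 times only under a minimum change of 1.5-fold, to 13, 15 and 20 at 3, 8 and 16 h in WT cells and 14, 14 and 14 in KO cells. Over arrays left out singly they ran from 27 to 30, 27 to 30 and 30 to 33 in WT cells, and from 27 to 29, 26 to 28 and 29 to 32 in KO cells. Intervals between later times were less firm. The 6 calls from 3 to 8 h in WT cells became 2 with arrays scaled to their medians, 11 with a replicate block, 10 with a random block, 0 at 1.5-fold, 3 without WT replicate 2 and 3 when only the groups compared were fitted (4 to 7 with single arrays left out). The 5 calls from 8 to 16 h in WT cells became 3 under quantile normalization, 0 with median scaling, 3 with no filter, 8 with a filter at the 60th percentile, 1 with the mean of probe sets, 16 with a replicate block, 12 with a random block, 0 at 1.5-fold, 0 without WT replicate 2 and 1 in only the groups compared (0 to 6). The 17 from 3 to 16 h in WT cells became 5 with median scaling, 2 at 1.5-fold and 8 without WT replicate 2 (11 to 18). In KO cells the 9 from 3 to 8 h became 1 with median scaling, 14 with a replicate block, 14 with a random block and 0 at 1.5-fold (3 to 10). The 2 from 8 to 16 h became 1 under quantile normalization, 0 with median scaling, 1 with no filter, 0 with the mean of probe sets, 14 with a replicate block, 7 with a random block, 1 without trend, 0 at 1.5-fold, 1 without WT replicate 2, 0 without the 2 arrays of highest background and 1 in only the groups compared (1 to 3). The 19 from 3 to 16 h became 4 with median scaling and 1 at 1.5-fold (15 to 22). The difference between genotypes averaged over the times had 1 call, Eif3a, under quantile normalization and 0 otherwise, and with single arrays left out 0 to 0, as had the 4 single times and the F-test. The causes were not tested, except that settings with fewer arrays or a larger minimum change ask more of each gene.

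Every change of sign came from averaging the probe sets of a gene: Eif3m -0.0375 at 3 h in WT and -0.274 at 16 h in KO cells, Eif5 -0.229 at 16 h in WT cells, Eif4h -0.0576 and -0.0875 at 3 and 8 h and Eif4g2 -0.0249 at 16 h in KO cells. From 8 to 16 h Eif3l was -0.169 in WT cells. From 3 to 16 h in WT cells Eif1ax was -0.0974, Eif3l -0.0143 and Eif4g2 -0.013. In KO cells Eif1ax was -0.00519 from 3 to 8 h and -0.158 from 3 to 16 h, and Eif3m -0.619 from 3 to 16 h.

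The replicate number was used as a block only here. Deviations of KO and WT arrays with the same number and time correlated by 0.0159 to 0.222, over 0.1 in 3 of 12 pairs. What the numbers share is not given, and the main fit did not pair the samples by them. Its SEs therefore include any differences between replicate numbers. For 21 of 24 arrays the best partner of the other genotype carried their own number, a hint from the data and not from the design. The block lost 0 of the 237 calls in all comparisons. The random block (genotype and replicate number, correlation 0.208) also lost 0. Fitting only the groups compared gave no value for the averaged difference and the F-test. Signals near the filter level limit what dim probe sets can show, and the members' brightest were above it on all arrays.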

Other observations

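Several initiation factors kept an order of replicates that ran through all 8 groups. Replicate 3 was the highest array of Eif1a, Eif4a1 and Eif4e and the lowest of Eif3c, Eif3d, Eif4ebp2 and Eif5 in every group. Replicate 2 was the lowest of Eif2b5, Eif4a2 and Eif4b and the highest of Eif4ebp2 and Eif4h, and replicate 1 was the highest of Eif3c. What the replicate numbers share is not given in the sources used here, and its part in these levels was not tested.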
